A study of Mus musculus with 11 samples.

Results

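The genes described here are 42 markers of the dividing cell, 17 that act in S phase and 25 that act in G2 phase and mitosis (G2/M), measured in splenic T-cells of mice with TCL1A-driven leukemia. They were found by their gene symbols in the platform annotation, with the row of the highest mean kept where a gene had several. All 42 were measured, among 19937 genes in all, so no member was lost. The S phase set holds 4 regulators, 9 genes of origin licensing and the replicative helicase, and 4 genes of DNA synthesis and nucleotide supply. The G2/M set holds 8 kinases, cyclins and the transcription factor Foxm1, 6 genes of the spindle checkpoint and the anaphase-promoting complex, 9 of the spindle and kinetochore, and 2 chromosomal proteins.

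In a cycling cell, cyclin E with its kinase and the E2F factors open S phase, the MCM helicase is loaded at origins by Cdc6, and PCNA, ribonucleotide reductase and thymidylate synthase sustain DNA synthesis. Later, cyclin A2, cyclin B2 and Cdk1 drive entry into mitosis, and the checkpoint kinases, kinesins and kinetochore proteins align and part the chromosomes before the anaphase-promoting complex ends mitosis. Resting T-cells keep most of these genes low, and their transcripts come and go with the share of cells in the cycle. In RNA of a bulk sample, fewer cycling cells and less RNA per cycling cell cannot be told apart.

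The exponential phase (5 arrays, CD8+-enriched splenic T-cells of Lckpr-TCL1A+/- mice, average age 15 months) had a tumor share above 80% in blood and above 90% in spleen, with lymphocytes doubling in 12 days on average (SEM 0.8). The chronic phase (3 arrays, the same genotype and enrichment, average age 12 months) had 30 to 70% tumor cells in both. The wild-type controls (3 arrays, age-matched C57BL/6 mice without the transgene) were CD3+ pan T-cells, each array a pool of 3 mice. Human TCL1A is driven in these hemizygous mice by the proximal Lck promoter, which is active from the thymic stage, and the controls differ in the T-cell selection as well as in the genotype. The labels do not state that a leukemia array came from 1 mouse, and all p-values rest on the spread among arrays.

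All arrays shared a distribution of log2 values with a median of 2.30, and arrays of the same group correlated at 0.946 or higher over all genes. Arrays of different groups correlated at 0.936 to 0.979, so these values do not set the groups apart. The T-cell list, which holds the CD3 subunits, averaged 6.80 to 7.78 in all 11 arrays, with 7 of its 8 genes measured. Exponential replicate 4 went against its label of a CD8-enriched sample. Its Cd8a, the CD8 alpha chain, was at 2.96 and its Cd4 at 5.18, against 7.94 to 8.20 and 2.15 to 2.44 in the other exponential arrays. The comparisons between groups and the ranges over arrays are given below with and without it.

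Read array by array, the S phase and G2/M genes were high in a single exponential array and in a pair of chronic arrays. The level of a set in an array is the median, over its genes, of the log2 value minus the mean of the 3 wild-type pools. The G2/M level was -0.36, 0.21, -0.19, 1.69 and 0.04 in exponential replicates 1 to 5, 0.07, 0.60 and 0.91 in chronic replicates 1 to 3, and -0.14, 0.20 and 0.12 in the wild-type pools. Exponential replicate 4 stood highest, chronic replicates 3 and 2 came next, and exponential replicates 1, 2, 3 and 5 and chronic replicate 1 lay between -0.36 and 0.21, close to the range of the controls.

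The S phase level was -0.16, 0.13, -0.14, 0.67 and 0.06 in exponential replicates 1 to 5, 0.15, 0.37 and 0.26 in chronic replicates 1 to 3, and -0.04, 0.04 and 0.02 in the wild-type pools. The same 3 leukemias led in S phase genes, with smaller distances. The gap between the sets, G2/M minus S phase, was 1.02 in exponential replicate 4, 0.65 in chronic replicate 3 and 0.24 in chronic replicate 2, and within -0.20 to 0.17 in the other 8 arrays.

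**Figure D1:**
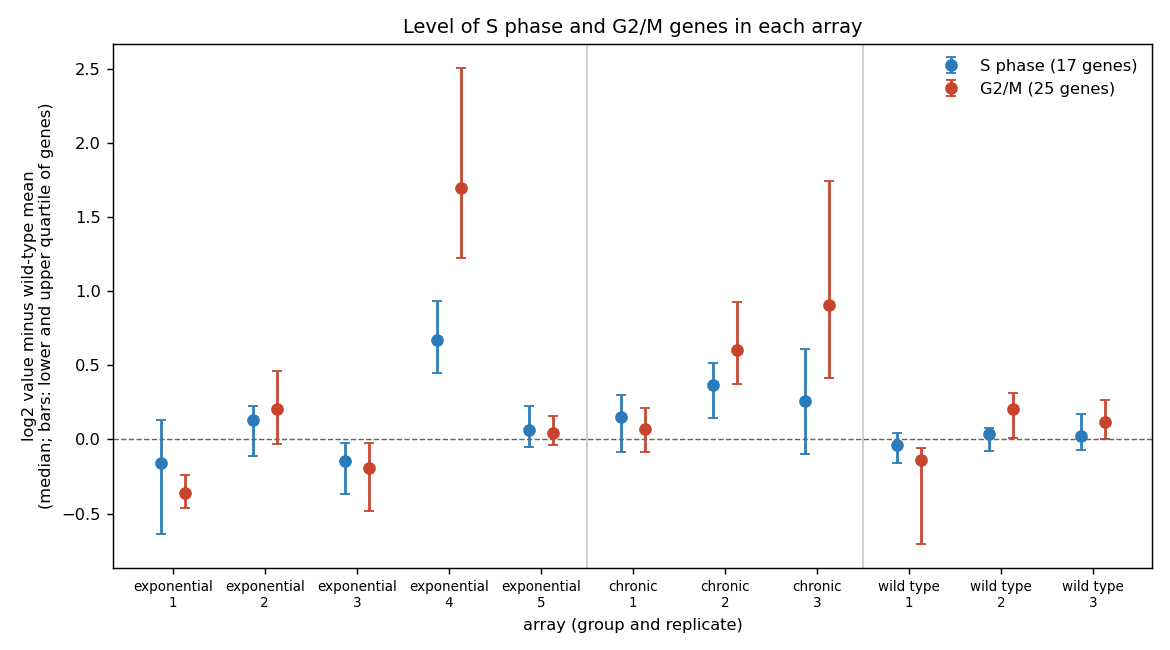
Median log2 value minus the wild-type mean over the 17 S phase genes (blue) and the 25 G2/M genes (red) in each of the 11 arrays; bars run between the lower and upper quartile of the genes, and the dashed line is the wild-type mean. Exponential replicate 4 reached 1.69 for G2/M and 0.67 for S phase, chronic replicate 3 reached 0.91 and 0.26, and the other exponential arrays lay near 0.

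Single genes followed these levels. In exponential replicate 4, 25 of 25 G2/M and 17 of 17 S phase members were above the wild-type mean, and 20 G2/M and 4 S phase members exceeded it by at least 1 log2 unit, a distance that 2.26% of all genes reached in this array. Its value was the highest of the 11 arrays for 24 of 25 G2/M and 10 of 17 S phase members, against 11.4% of all genes. In chronic replicate 3, 12 G2/M and 3 S phase members lay at least 1 log2 unit above the wild-type mean (1.75% of all genes), and in chronic replicate 2 these were 4 and 3 (1.34%). In chronic replicate 1 it was 0 of 42, with 1.61% of all genes. Every pool was exceeded by 25 G2/M and 16 S phase members in exponential replicate 4 (27% of all genes), by 24 and 9 in chronic replicate 3 (32%), by 22 and 12 in chronic replicate 2 (24.9%) and by 5 and 5 in chronic replicate 1 (27.8%). Exponential replicate 1 held the lowest value of all arrays for 14 members, 10 of them G2/M genes (8.34% of all genes), and wild-type replicate 1 for 11 (12.5%).

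**Figure D2:**
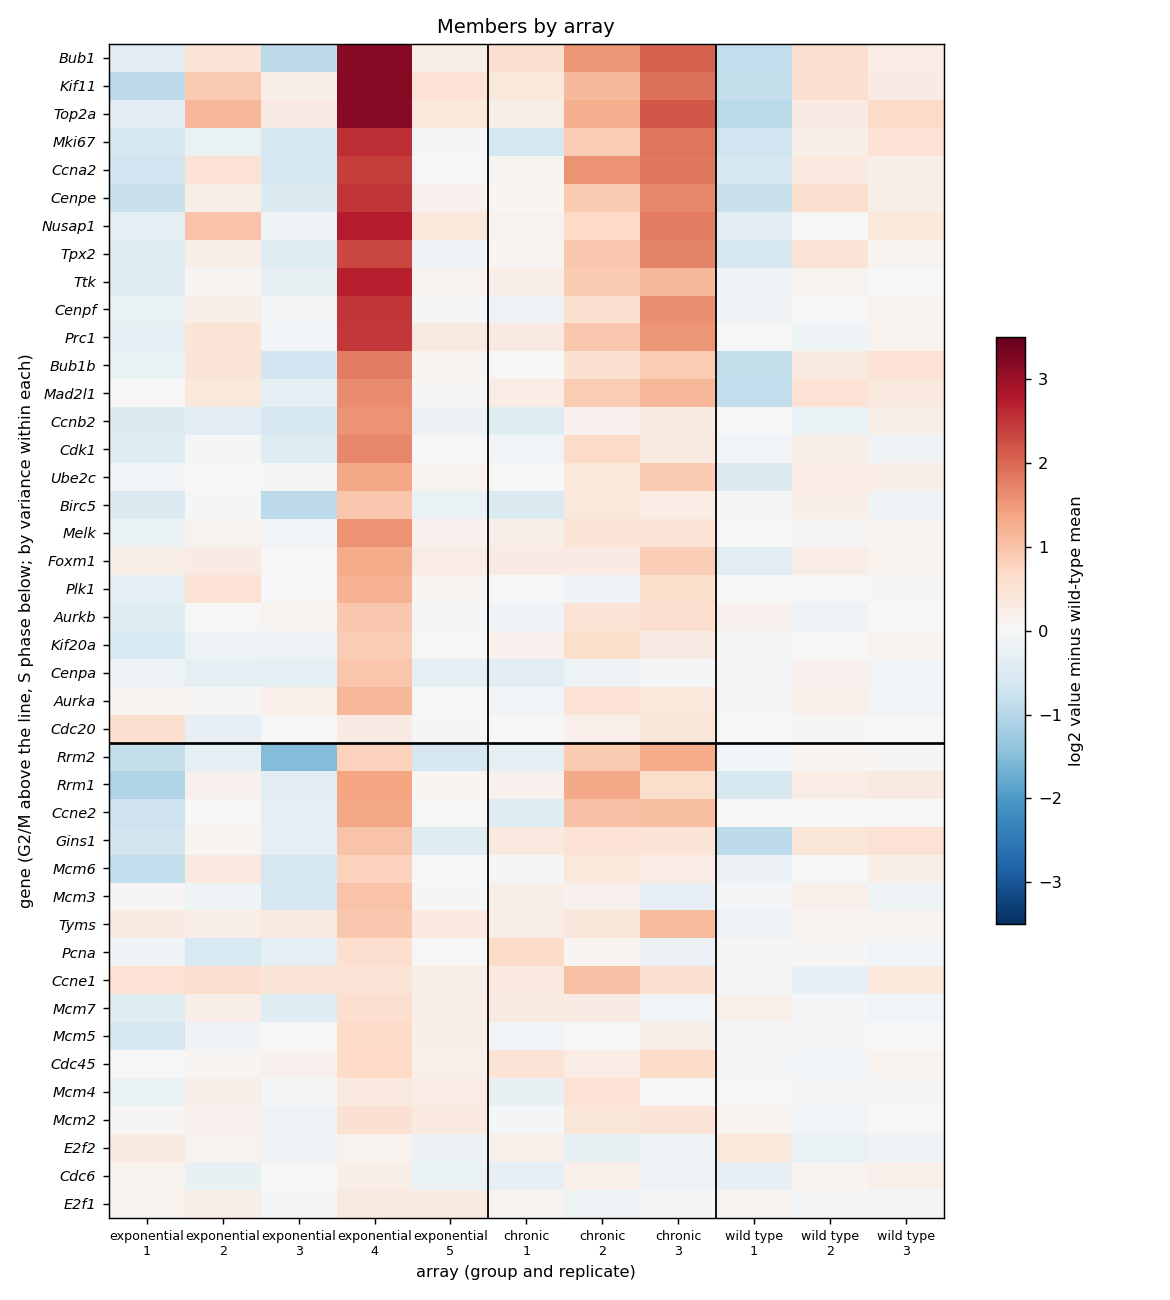
Log2 value of each of the 42 members minus its wild-type mean (color) in the 11 arrays, G2/M genes above the line and S phase genes below, ordered by variance within each set. Red fills nearly the whole column of exponential replicate 4, reaching 3.19 in the G2/M genes, and most G2/M rows of chronic replicates 2 and 3.

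The G2/M genes swung more than the S phase genes at a like brightness. The range over the 11 arrays, highest minus lowest, had a median of 2.52 log2 units in the G2/M genes (0.87 to 4.12) and of 1.27 in the S phase genes (0.50 to 2.83), and of 0.63 over all genes. A range of at least 2 log2 units was found in 15 of 25 G2/M and 3 of 17 S phase members, and in 784 of all 19937 genes. Much of this rested on exponential replicate 4. Over the other 10 arrays, a choice made after seeing the data, the median range was 1.57 in the G2/M genes, 0.81 in the S phase genes and 0.61 over all genes. There 9 of 25 G2/M and 2 of 17 S phase members ranged over at least 2 log2 units, as did 563 of all 19937 genes. The median of the mean levels was 3.45 in the G2/M and 3.46 in the S phase set. Genes at the low end have little room to fall, and the level of background was not determined.

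**Figure D3:**
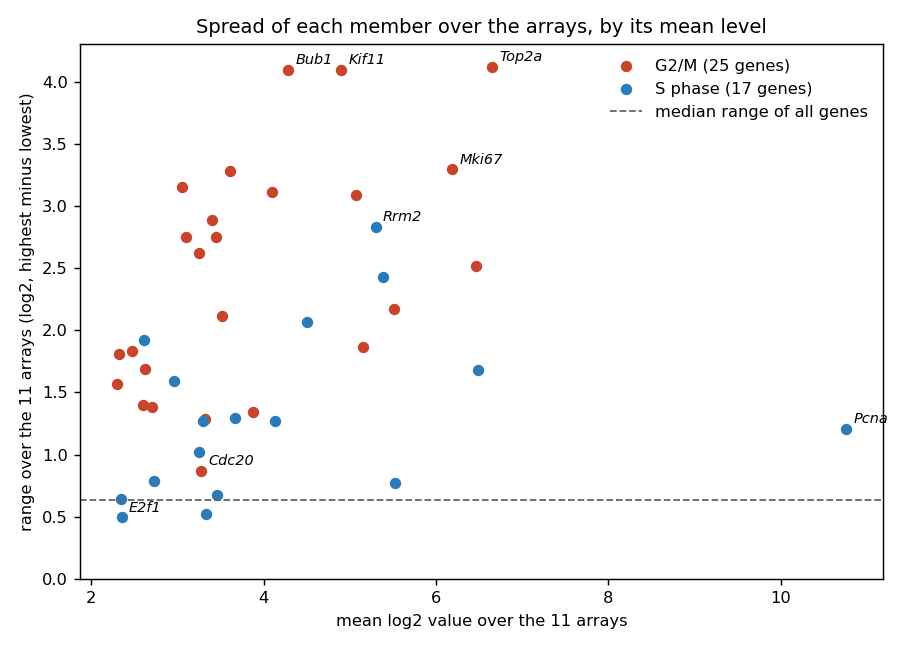
Range of each member over the 11 arrays (log2, highest minus lowest) against its mean log2 value, with G2/M genes in red, S phase genes in blue and the median range of all genes, 0.63, as a dashed line. The widest ranges, up to 4.12, belong to the G2/M genes Top2a, Kif11 and Bub1, while the G2/M gene Cdc20, at 0.87, lies among the narrow ones.

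Of the chromosomal proteins, Mki67 codes for Ki-67, the proliferation marker that coats mitotic chromosomes. It measured 5.31, 5.65, 5.32, 8.48 and 5.86 in exponential replicates 1 to 5, 5.27, 6.78 and 7.76 in chronic replicates 1 to 3, and 5.18, 6.09 and 6.39 in the wild-type pools. Exponential replicate 4 was thus over 2 log2 units above every other exponential array, chronic replicate 1 was near the lowest pool, and both groups overlapped the controls. Top2a, the topoisomerase that disentangles sister chromatids, measured 5.54, 7.06, 6.19, 9.08 and 6.26 in exponential replicates 1 to 5, 6.11, 7.16 and 8.08 in chronic replicates 1 to 3, and 4.95, 6.19 and 6.56 in the wild-type pools. Exponential replicate 2 was here next to chronic replicate 2. A further, dim Top2a row with a mean of 1.62 showed 0.30 in exponential replicate 4 minus the wild-type mean, where the row used showed 3.18, so the dim row did not follow it.

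Of the checkpoint genes, Bub1, a kinetochore kinase, had the largest variance of all members. It measured 3.30, 4.11, 2.76, 6.86 and 3.89 in exponential replicates 1 to 5, 5.22 and 5.74 in chronic replicates 2 and 3 with 4.22 in replicate 1, and 2.82, 4.26 and 3.94 in the wild-type pools. Only chronic replicate 1 kept the chronic group from lying wholly above the controls. Bub1b, Mad2l1, which holds the checkpoint signal, and the kinase Ttk had their highest value in exponential replicate 4 too, at 4.78, 7.75 and 5.36. Ttk was the checkpoint gene whose chronic arrays (2.89, 3.56 and 3.78) all lay above the pools (2.51, 2.77 and 2.65). Cdc20, the activator of the anaphase-promoting complex, was the exception of the set. It was highest in exponential replicate 1, at 3.74, against 3.46 in exponential replicate 4, and its range over all arrays was 0.87. Ube2c, the ubiquitin-conjugating enzyme of the same complex, reached 3.58 in exponential replicate 4 and 3.15 in chronic replicate 3.

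Of the spindle and kinetochore genes, Kif11, the kinesin that pushes spindle poles apart, measured 3.32, 5.15, 4.43, 7.42 and 4.75 in exponential replicates 1 to 5, 4.62, 5.37 and 6.16 in chronic replicates 1 to 3, and 3.40, 4.80 and 4.53 in the wild-type pools. Cenpe, the kinetochore kinesin, measured 2.43, 3.43, 2.73, 5.72 and 3.36 in exponential replicates 1 to 5, 3.29, 4.15 and 4.90 in chronic replicates 1 to 3, and 2.45, 3.78 and 3.43 in the wild-type pools. In both, chronic replicates 2 and 3 lay above every pool and chronic replicate 1 among them. Nusap1, Tpx2, Prc1 and Cenpf, all proteins of spindle microtubules or the kinetochore, had the same highest array, at 6.28, 5.34, 5.04 and 5.56. Cenpa, the histone variant of centromeres, measured 3.58, 3.77 and 3.88 in chronic replicates 1 to 3, against 3.86 to 4.09 in the wild-type pools, and 4.92 in exponential replicate 4.

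Of the cyclins and kinases, Ccna2, cyclin A2, measured 3.93, 5.11, 4.00, 7.02 and 4.61 in exponential replicates 1 to 5, 4.71, 6.18 and 6.44 in chronic replicates 1 to 3, and 4.06, 4.96 and 4.81 in the wild-type pools. Exponential replicate 4 exceeded the nearest exponential array by almost 2 log2 units. Cdk1, the kinase of mitotic entry, and Ccnb2, cyclin B2, reached 5.06 and 7.09 in exponential replicate 4, against 2.94 to 3.34 and 4.93 to 5.31 in the other exponential arrays. Aurka, Aurkb, Plk1, Melk and Foxm1, the factor that drives many G2/M genes, were dimmer, with means of 2.29 to 3.31. Plk1 was the dimmest member, with a mean below the median of all rows, and it was at 3.34 in exponential replicate 4 and at 1.98 to 2.72 in the chronic arrays.

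Many G2/M genes are known to be held down in resting cells through a cell cycle genes homology region (CHR) near the start of the gene and driven through CCAAT boxes, and many S phase genes through E2F sites. RefSeq promoter sequences of build GRCm38.p6 were found for 34 of the 42 members, and the 250 bases before each start were searched on both strands. The letters were TTTGAA or TTTAAA for a CHR, CCAAT for a CCAAT box, and TTTCCCGC, TTTGGCGC, TTTCGCGC or TTTGCCGC for E2F. Hits may overlap, and TTTAAA reads the same on both strands. A gene with several starts was counted if any of them had a match, which concerns 3 members, Prc1, E2f2 and Mcm7. A CHR was found in 12 of 20 G2/M and 5 of 14 S phase members, against 28.1% of 27025 genes with a promoter of this length. A CCAAT box was found in 16 of 20 and 10 of 14 members, against 37.5% of all genes. An E2F match was found in 1 of 20 and 4 of 14 members, against 2.16% of all genes. These matches are letters in a window and do not show that a site is used. The 150 bases before the start are shown for the G2/M genes of the largest variance that hold a CHR there, with CHR and CCAAT letters in capitals.
Kif11 (chr19:37376232-37376381, plus strand): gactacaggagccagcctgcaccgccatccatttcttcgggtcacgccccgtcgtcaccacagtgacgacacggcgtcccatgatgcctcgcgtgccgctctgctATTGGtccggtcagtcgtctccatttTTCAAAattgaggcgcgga
Top2a (chr11:99024190-99024339, minus strand): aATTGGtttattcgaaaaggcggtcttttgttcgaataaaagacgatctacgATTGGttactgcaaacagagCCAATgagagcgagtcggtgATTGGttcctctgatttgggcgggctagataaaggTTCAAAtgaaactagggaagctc
Mki67 (chr7:135716380-135716529, minus strand): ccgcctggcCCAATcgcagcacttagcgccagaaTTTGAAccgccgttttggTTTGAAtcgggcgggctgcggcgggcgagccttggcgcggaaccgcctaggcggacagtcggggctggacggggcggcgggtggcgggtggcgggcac
Prc1 (chr7:80294326-80294475, plus strand): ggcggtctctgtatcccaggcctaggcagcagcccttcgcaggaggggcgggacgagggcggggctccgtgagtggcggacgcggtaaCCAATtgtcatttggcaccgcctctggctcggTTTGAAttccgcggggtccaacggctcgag
In Kif11, Top2a and Prc1 the CHR letters begin 19, 23 and 30 bases before the start, each with a CCAAT box farther upstream, and Mki67 holds 2 CHR matches 98 and 116 bases before it. Prc1 has a further start, not shown, with no CHR letters in the 250 bases before it. Bub1, Cenpe and Ttk held a CCAAT box and no CHR letters in this window, and they too had their highest value in exponential replicate 4. The S phase genes with E2F letters in the same 150 bases, in capitals, follow for comparison.
Mcm6 (chr1:128359706-128359855, minus strand): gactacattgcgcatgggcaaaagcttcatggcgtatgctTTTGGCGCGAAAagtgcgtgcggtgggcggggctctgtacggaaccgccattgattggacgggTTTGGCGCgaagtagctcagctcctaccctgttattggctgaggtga
Mcm5 (chr8:75109359-75109508, plus strand): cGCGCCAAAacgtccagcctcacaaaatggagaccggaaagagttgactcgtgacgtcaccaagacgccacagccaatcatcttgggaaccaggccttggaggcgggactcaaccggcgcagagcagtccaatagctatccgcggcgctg
Cdc6 (chr11:98908001-98908150, plus strand): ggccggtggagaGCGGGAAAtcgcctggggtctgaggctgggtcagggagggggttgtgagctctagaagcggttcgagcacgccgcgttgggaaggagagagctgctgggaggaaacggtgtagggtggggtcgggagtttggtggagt
Mcm6 holds 3 matches, of which a pair overlap.

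In the S phase set, the widest ranges belonged to nucleotide supply. Rrm2, the cycle-regulated small subunit of ribonucleotide reductase, measured 4.52, 5.02, 3.83, 6.16 and 4.77 in exponential replicates 1 to 5, 5.01, 6.28 and 6.66 in chronic replicates 1 to 3, and 5.25, 5.43 and 5.39 in the wild-type pools. Its highest array was chronic replicate 3, and 4 of the 5 exponential arrays lay below every pool. Rrm1, the large subunit, measured 4.12, 5.33, 4.81, 6.55 and 5.25 in exponential replicates 1 to 5, 5.34, 6.52 and 5.79 in chronic replicates 1 to 3, and 4.61, 5.45 and 5.49 in the wild-type pools. Tyms, thymidylate synthase, was the member whose leukemia arrays, at 4.01 to 4.89, all lay above the pools, at 3.62 to 3.87. Pcna, the sliding clamp, was the brightest member. It measured 10.6, 10.2, 10.4, 11.3 and 10.7 in exponential replicates 1 to 5, 11.4, 10.8 and 10.6 in chronic replicates 1 to 3, and 10.8, 10.8 and 10.7 in the wild-type pools, and its highest array was chronic replicate 1.

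The cyclins E, which start S phase, parted. Ccne2 measured 3.60, 4.35, 4.00, 5.67 and 4.31 in exponential replicates 1 to 5, 3.90, 5.34 and 5.39 in chronic replicates 1 to 3, and 4.34, 4.34 and 4.31 in the wild-type pools, with the same 3 leukemias highest as in the G2/M set. Ccne1 measured 3.79, 3.88, 3.76, 3.75 and 3.51 in exponential replicates 1 to 5, 3.63, 4.32 and 3.82 in chronic replicates 1 to 3, and 3.22, 3.02 and 3.66 in the wild-type pools, with exponential replicate 4 inside the range of its group. E2f1 and E2f2, activators of S phase genes, spanned 0.50 and 0.64 log2 units over all arrays, at means of 2.35 for both.

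Among helicase genes, Gins1, a subunit of the GINS complex, measured 1.88, 2.62, 2.22, 3.52 and 2.09 in exponential replicates 1 to 5, 2.86, 3.01 and 2.96 in chronic replicates 1 to 3, and 1.60, 2.93 and 3.01 in the wild-type pools. Wild-type replicate 1 was lowest here, so the pools themselves spanned over 1 log2 unit. Mcm6 measured 5.60, 6.81, 5.87, 7.28 and 6.46 in exponential replicates 1 to 5, 6.43, 6.83 and 6.72 in chronic replicates 1 to 3, and 6.27, 6.46 and 6.67 in the wild-type pools. Mcm3 measured 2.96, 2.79, 2.35, 3.94 and 2.88 in exponential replicates 1 to 5, 3.15, 3.07 and 2.64 in chronic replicates 1 to 3, and 2.90, 3.12 and 2.78 in the wild-type pools. Both MCM subunits were highest in exponential replicate 4, and their chronic arrays lay within about 0.2 log2 units of the range of the pools. Mcm2, Mcm5, Mcm7 and Cdc45, a helicase partner, had the same highest array, while Mcm4 was highest in chronic replicate 2.

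Exponential against wild type set the fast-growing leukemias against normal T-cells. The median log2 difference was 0.30 over the G2/M and 0.05 over the S phase members, with 0.01 over all genes, and 33 of 42 members lay above 0 (51.7% of all genes). None of the 42 was called by limma at an adjusted p under 0.05 and a fold of at least 1.5 (0.135% of all genes called higher and 0.281% lower), and 2 were higher and 0 lower at an unadjusted p under 0.05 (4.79% and 4.99% of all genes). These were Ccne1, at 3.74 ± 0.14 (SD, n = 5) against 3.30 ± 0.32 (n = 3), a difference of 0.44 with an SE of 0.15 (limma adjusted p = 0.333), and Tyms, with 0.42 and an SE of 0.16 (limma adjusted p = 0.419). Tyms was also the only member whose exponential arrays all lay above the pools, which held for 3.28% of all genes, and 0 lay wholly below them (3.5%). Mki67 averaged 6.12 ± 1.34 in the exponential phase and 5.89 ± 0.63 in wild type. Without exponential replicate 4 the direction turned, with medians of -0.09 for G2/M and -0.10 for S phase and 16 of 42 members above 0 (50.6% of all genes). Then 2 members were higher and 3 lower at an unadjusted p under 0.05 (5.89% and 5.4% of all genes), the lower ones being Rrm2 at -0.82, Ccnb2 at -0.41 and Cenpa at -0.29, and 0 were called (0.547% of all genes called higher and 0.562% lower). The 4 arrays lay above all pools for Tyms (5.23% of all genes) and below them for Rrm2 and Cenpa (5.31%).

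Chronic against wild type set the earlier phase against the same 3 pools, so both comparisons share their controls. The median log2 difference was 0.48 over the G2/M and 0.20 over the S phase members, with -0.002 over all genes, and 38 of 42 members lay above 0 (49.7% of all genes). None was called by limma (0.14% of all genes called higher and 0.316% lower), and 10 were higher and 0 lower at an unadjusted p under 0.05, 7 G2/M and 3 S phase genes, where 6.36% of all genes were higher and 4.8% lower. Bub1 had the largest difference, 5.06 ± 0.77 against 3.67 ± 0.75 (SD, n = 3 each), which is 1.39 with an SE of 0.46 (limma adjusted p = 0.311). Ttk had the smallest p, with a difference of 0.76 and an SE of 0.23 (limma adjusted p = 0.249). Prc1, which bundles the midzone of the spindle, was higher by 0.94, Ccna2 by 1.17, Kif11 by 1.14, Melk by 0.40 and Kif20a by 0.35, all with limma adjusted p between 0.257 and 0.417. The S phase genes were Ccne1 at 0.63, Tyms at 0.59 and Cdc45 at 0.46. The chronic arrays all lay above the pools for 5 G2/M and 2 S phase members (8.28% of all genes), and below them for 0 (7.52%). Without chronic replicate 3 the medians of both sets were 0.29, and without chronic replicate 1 they were 0.72 for G2/M and 0.31 for S phase, with Ccne2 called (limma adjusted p = 0.0471). Of all 19937 genes, 9 were called higher and 31 lower without chronic replicate 1.

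Exponential against chronic set the later phase against the earlier one of the same genotype and enrichment by their labels. Exponential replicate 4 went against that enrichment, with Cd8a at 2.96 and Cd4 at 5.18, against 6.71 to 8.12 and 1.79 to 2.59 in the chronic arrays. The median log2 difference was -0.20 over the G2/M and -0.16 over the S phase members, with 0.004 over all genes, and 9 of 42 members lay above 0 (51.1% of all genes). None of the 42 was called (0% of all genes), and 0 passed an unadjusted p under 0.05 (2.75% of all genes higher and 3.5% lower). The arrays of the phases overlapped for every member, where 2.3% of all genes lay wholly above and 2.25% wholly below. The smallest p was that of Rrm2, at 4.86 ± 0.85 (SD, n = 5) against 5.99 ± 0.86 (n = 3), a difference of -1.13 with an SE of 0.51 (limma adjusted p = 0.795). Without exponential replicate 4 the medians were -0.57 for G2/M and -0.26 for S phase, 2 of 42 members lay above 0, and 17 were lower at an unadjusted p under 0.05 and 0 higher (3.99% and 3.08% of all genes), 12 of the lower being G2/M genes. Bub1 then differed by -1.54, Ccna2 by -1.36 and Cenpe by -1.12. Still 0 members and 0% of all genes were called. The 4 exponential arrays lay below all chronic arrays for 7 members (3.82% of all genes), among them Bub1, Ttk, Rrm1 and Gins1. With all exponential arrays kept and chronic replicate 3 left out, the G2/M median was 0.01.

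**Figure D4:**
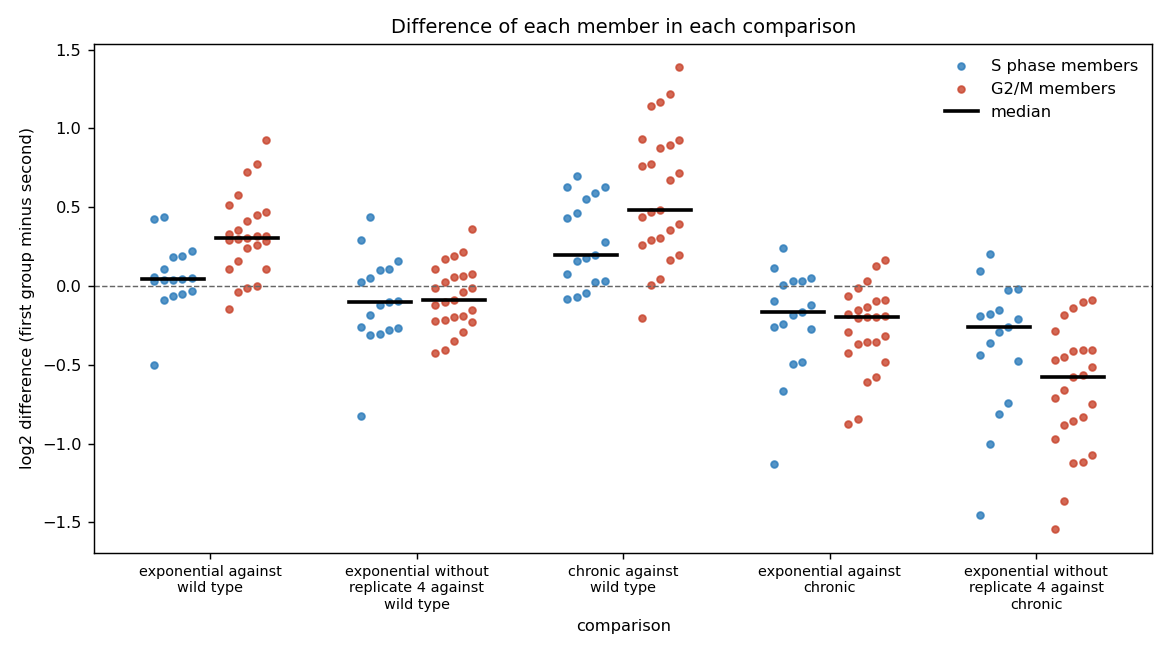
Log2 difference of each member (first group minus second) in 5 comparisons, S phase members in blue and G2/M members in red, with the median of each set as a bar. The G2/M median is 0.30 for exponential against wild type and -0.09 without exponential replicate 4, and 0.48 for chronic against wild type.

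Other genes of the same processes were high in the same arrays. A list of 41 further replication genes had a level of 0.81 in exponential replicate 4, 0.41 in chronic replicate 2 and 0.30 in chronic replicate 3, and -0.06 to 0.26 in the other 8 arrays. A list of 53 further mitotic genes had 1.64, 0.64 and 0.87 in these arrays and -0.19 to 0.24 in the others. None of either list was called in the 3 comparisons with all arrays kept. When exponential replicate 4 was left out, 1 replication gene was called higher in exponential against wild type (0.547% of all genes). In that setting 0 mitotic genes were called. In chronic against wild type, 12 replication genes were higher and 0 lower, and 15 mitotic genes were higher and 1 lower, at an unadjusted p under 0.05 (6.36% of all genes higher and 4.8% lower). In exponential against wild type, 5 replication genes were higher and 1 lower and 2 mitotic genes higher and 1 lower (4.79% and 4.99% of all genes), and in exponential against chronic 2 replication genes were lower, with no mitotic gene in either direction (2.75% of all genes higher and 3.5% lower). Without exponential replicate 4, 10 replication and 20 mitotic genes were lower in exponential against chronic (3.99% of all genes), and 0 of each list higher. Cdc7, the kinase that fires origins, was at 3.03, 3.07 and 3.18 in the chronic arrays and at 2.30, 2.50 and 2.28 in the pools, and Fen1, which trims Okazaki fragments, at 2.57, 2.61 and 2.53 against 1.75, 1.66 and 2.08 (limma adjusted p = 0.0617 and 0.0865). For these genes chronic replicate 1 lay close to the other chronic arrays. The mitotic gene that was lower was Pttg1, securin, with -0.93 in chronic (limma adjusted p = 0.125) and -1.05 in exponential against wild type (limma adjusted p = 0.208).

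The other lists held regulators of the cycle. A list of 12 genes held G1 cyclins and their kinases together with Cdc25a, Cdc25b, Cdc25c, Wee1, Chek1 and Chek2. Its level is therefore not one of G1 genes alone. It was -0.17, 0.13, -0.09, 0.40 and -0.06 in exponential replicates 1 to 5, 0.04, 0.22 and 0.22 in chronic replicates 1 to 3, and -0.04, -0.10 and 0.18 in the wild-type pools. Chek2, a kinase of the DNA damage checkpoint, differed by 0.51 in chronic against wild type and by -0.45 in exponential against chronic (limma adjusted p = 0.261 and 0.637). The 7 CDK inhibitors had levels of -0.17 to 0.30 over all arrays. Within them Cdkn2c, p18, was at 5.97 in exponential replicate 4 and at 2.13 to 2.96 in the other exponential arrays, and Cdkn3, a phosphatase of CDKs, at 4.18 and 2.18 to 2.71, both picked out after their values were seen. The 17 genes of the RB, E2F and DREAM group had 0.55 in exponential replicate 4, 0.35 in chronic replicate 3 and -0.19 to 0.13 in the rest. Of these Rbl2, the pocket protein p130, differed by -0.49 in exponential against wild type (limma adjusted p = 0.248), and E2f4, a repressive E2F, by 0.38 in chronic against wild type (limma adjusted p = 0.269). The 10 genes linked to T-cell quiescence had their lowest levels in exponential replicate 4, -0.55, and chronic replicate 2, -0.42. Chronic replicate 3, although high in G2/M genes, had a quiescence level close to that of chronic replicate 1. Of these Btg2, an antiproliferative factor, differed by -1.37 in exponential and -1.73 in chronic against wild type, and Klf2, which keeps T-cells resting, by -1.03 in chronic against wild type (limma adjusted p = 0.242, 0.135 and 0.135). None of these lists had a called gene in the 3 comparisons.

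Markers of other cells differed in the arrays that led in G2/M genes. In exponential replicate 4 the myeloid list (12 of 12 genes measured) averaged 4.24, against 2.79 to 3.45 in the other exponential arrays, 2.19 to 2.47 in the chronic phase and 2.19 to 2.45 in wild type. S100a9, a granulocyte protein, was at 8.83 there and at 4.97 to 6.58 in the other exponential arrays, and Lyz2 was at 6.36 and 4.84 to 6.05. Only part of the list rose. Itgam, Csf1r, Cd14 and Elane, at 2.09, 2.21, 1.99 and 2.19 in exponential replicate 4, lay within the range of the other exponential arrays. The other genes of the list had their highest exponential value in replicate 4. The CD4 list, of 2 genes, averaged 4.36 in exponential replicate 4, within the range of the wild-type pools (4.19 to 4.59), against 2.51 or less in all other leukemias. Its genes parted there. Cd4, at 5.18, lay above the pools (4.21 to 4.62), and Cd40lg, at 3.54, below them (3.94 to 4.73). The erythroid list (11 of 19 genes measured) averaged 3.72 in exponential replicate 4 and 2.65 to 2.78 in the other exponential arrays, 2.66, 4.74 and 3.69 in chronic replicates 1 to 3, and 3.67 to 4.41 in wild type. Car1, a carbonic anhydrase of red cell precursors, was at 5.29 in exponential replicate 4 and 1.82 to 3.03 in the other exponential arrays, at 2.27, 9.27 and 7.63 in chronic replicates 1 to 3, and at 8.53 to 9.79 in the pools. The 3 leukemias with the highest G2/M levels were thus also the 3 with the highest Car1, while the pools had high Car1 at G2/M levels near 0. Not all erythroid genes followed Car1. Klf1 and Alas2, at 2.17 and 2.28 in exponential replicate 4, lay within the range of the other exponential arrays. Alas2 and Tfrc were lower in chronic replicate 3, at 1.95 and 6.43, than in chronic replicate 1, at 2.32 and 6.62. The other measured genes of the list went the way of Car1 in these arrays. The plasma cell list (6 of 7 genes measured) averaged 3.18 to 3.90 in the exponential phase, with 3.37 in replicate 4, 3.40, 4.16 and 4.66 in chronic replicates 1 to 3, and 4.29 to 5.55 in wild type. Jchain, which joins immunoglobulin polymers, was at 6.24 to 8.13 in the exponential arrays, at 6.44, 9.49 and 10.2 in chronic replicates 1 to 3, and at 9.20 to 11.1 in the pools. Chronic replicates 2 and 3 were thus also higher than chronic replicate 1 in the plasma cell average and in Jchain. Not every gene of the list followed. Irf4 was at 2.69 in chronic replicate 2 and 2.82 in replicate 1, and Sdc1 at 1.63 in replicate 3 and 2.13 in replicate 1. The B cell list (7 of 8 genes measured) averaged 3.01 to 4.31 in the exponential phase, 2.59 to 3.62 in the chronic phase and 2.93 to 3.78 in wild type. Genes that define early thymocytes, such as Rag1 and Dntt, stayed dim, with a list average of 1.94 to 2.18 in all arrays. The part of these cells in the cell-cycle values was not tested.

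**Figure D5:**
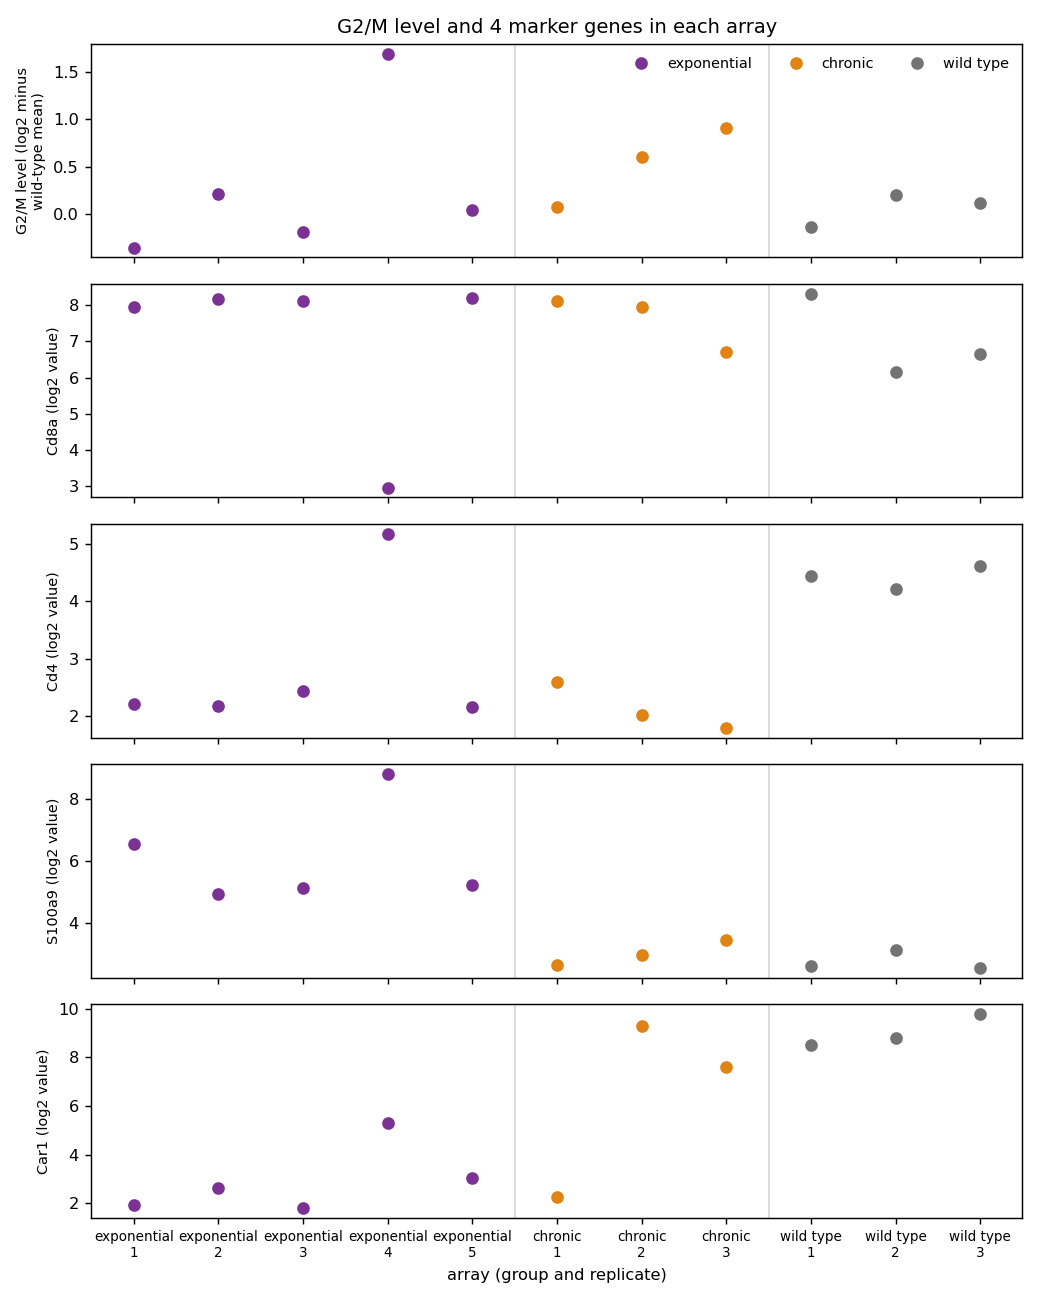
G2/M level (log2 minus wild-type mean, top) and log2 values of Cd8a, Cd4, S100a9 and Car1 in each of the 11 arrays, colored by group. Exponential replicate 4 is high in G2/M genes at 1.69, in Cd4 at 5.18 and in S100a9 at 8.83 and low in Cd8a at 2.96, and chronic replicates 2 and 3 differ from chronic replicate 1 in Car1, 9.27 and 7.63 against 2.27.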

How the data were processed

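Splenic T-cell RNA was hybridized to 11 Affymetrix Mouse Gene 1.0 ST arrays. The deposited values are log2 intensities, which the authors background-corrected by RMA and quantile-normalized with the affy package (its version: not given in the sources used here). The log base was judged from their range, whose minimum was 0.775. Quantile normalization gives every array the same distribution, so a change of all genes in an array cannot be seen. Detection calls were not used, and precision is limited by the number of arrays.

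Of 34760 rows, 21640 carried 1 gene symbol, 1321 several and 11799 none. Rows with 1 symbol were used, and the row with the highest mean was kept for the 954 genes with several, which left 19937 genes. Of the members, Pcna and Top2a had 2 rows. Each comparison was fitted with limma 3.58.1 in R 4.3.3 on the arrays of its 2 groups, as the study analysed each phase separately, with Benjamini-Hochberg adjustment over all genes. Called genes passed an adjusted p of 0.05 with a fold of at least 1.5. Groups were taken from the titles. The fit was tested on simulated data with 200 changed genes among 19937. In exponential against wild type it recovered 73% of 2-fold and 97% of 4-fold changes, in chronic against wild type 55% and 93%, and in exponential against chronic 75% and 97%. These shares hold for a typical gene. In exponential against wild type the median SE was 0.131 over all genes and 0.342 over the members (0.451 in G2/M), so these shares do not carry over to the members.

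The members and the lists were chosen with earlier results of these data known. Any member could be named, and per-array values were given for the 6 members of each set with the largest variance and for Mki67, Pcna and Ccne1. From each other list some genes with the smallest p were named, and Cdkn2c and Cdkn3 were chosen after their values were seen. Of the cell type markers, only Car1, Cd8a, Cd4 and Lyz2 were planned as single genes, so S100a9, Jchain and the others named were not. Of the members, 34 had a RefSeq promoter sequence. Alternatives were another model, filter, normalization, row choice or test, and each array left out. Genes whose row is shared with others, such as Cdkn1a, were not analysed here.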

Additional observations from a re-analysis of the deposited data

Results flagged for a closer look

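In the exponential phase, 15 values stood far from the other 4 arrays of the group by Dixon's test (the gap to the nearest array over the whole range exceeded 0.71), all of them in exponential replicate 4. Chance flags about 1 in 20 such groups, a nominal rate, since the members moved together. Over all 19937 genes, exponential replicate 4 stood so far from the others in 2.79%, and above them in 2.05%. Of the G2/M members, 12 of 25 were so placed. They were Mki67 at 8.48, Ccnb2 at 7.09, Cenpf at 5.56, Ttk at 5.36, Tpx2 at 5.34, Cdk1 at 5.06, Prc1 at 5.04, Cenpa at 4.92, Aurka at 4.28, Melk at 3.64, Foxm1 at 3.61 and Ube2c at 3.58. Of the S phase members, 2 of 17 were, Tyms at 4.71 and Cdc45 at 3.19. The G2/M level itself was 1.69, against 0.21 in the nearest exponential array. The array also had low Cd8a and high Cd4 and S100a9, as given above, and their part in these values was not tested.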

How the results depend on the processing

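The count of members called stayed at 0 in exponential against wild type and in exponential against chronic under all settings run. In chronic against wild type it was 2 with the replicate number as a block (Bub1 and Top2a, limma adjusted p = 0.0466 and 0.0419). Of all 19937 genes, 31 were called higher and 79 lower in that setting. The count of members was 0 to 1 when each array was left out in turn, with Ccne2 called without chronic replicate 1 (limma adjusted p = 0.0471). There 9 of all genes were called higher and 31 lower. The labels do not state that the replicate numbers pair the arrays. Same-numbered arrays correlated at -0.037 to 0.18 in their deviations, and differently numbered ones at -0.228 to 0.104. These ranges overlap over few pairs, so they cannot decide whether the numbers pair the arrays. The block changed no other count of members called. In the block setting 7, 19 and 23 members had an unadjusted p under 0.05 in the 3 comparisons. The share of all genes at this p was not counted under the block, nor were the directions. Exponential replicates 4 and 5, which have no partner, were left out under the block. In the comparisons with the exponential phase, the effect of the block cannot be told from that of leaving them out. Without exponential replicate 4 and with no block, 5 members had such a p in exponential against wild type. In exponential against chronic there were 17. Student's test per gene called 0 members in each comparison. Of all 19937 genes it called 0 higher and 4 lower in exponential against wild type, and 0 in the other comparisons.

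Leaving out each array in turn gave G2/M medians of -0.09 to 0.50 in exponential against wild type, 0.29 to 0.73 in chronic against wild type and -0.57 to 0.01 in exponential against chronic, with the ends set by exponential replicates 4 and 3, chronic replicate 3 and wild-type replicate 3, and exponential replicate 4 and chronic replicate 3. Without wild-type replicate 1 the first was 0.10. The S phase medians were -0.10 to 0.19, 0.20 to 0.31 and -0.26 to -0.06. Among members with a mean of at least 4, a cutoff chosen after seeing the data on a mean that includes the arrays where the genes are high, the S phase and G2/M medians in chronic against wild type were 0.55 and 0.88. The G2/M minus S phase level turned its sign only in arrays where it lay within -0.20 to 0.17. With these brighter members it was 0.26 and 0.043 in exponential replicates 1 and 5 and 0.17 in chronic replicate 1. Centred on all arrays it was -0.10 in exponential replicate 2 and -0.068 and -0.080 in wild-type replicates 2 and 3. Divided by the SD of each gene it was -0.13 and 0.22 in exponential replicates 2 and 3. The causes were not tested. Changes below about 2-fold are poorly covered for a typical gene with 3 arrays a group. For the members, whose median SE was larger, larger changes are poorly covered too. Bub1, at 1.39 in chronic against wild type, was not called.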
